A study of Mus musculus with 12 samples.

Results

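The Hippo core was described by 10 genes out of the 56980 in the count matrix, chosen by name: *Yap1* and *Wwtr1*, which encode the transcriptional coactivators YAP and TAZ, the LATS kinase genes *Lats1* and *Lats2*, the MST kinase genes *Stk3* (MST2) and *Stk4* (MST1), the adaptor genes *Sav1*, *Mob1a* and *Mob1b*, and *Nf2*, which encodes merlin. Each symbol matched 1 row of the matrix, and each gene had between 573 and 5632 counts in every library, so all 10 were tested. The libraries came from bulk poly(A) RNA of W-20 cells, a murine bone marrow stromal cell (BMSC) line, with 3 libraries in each of 4 groups: WT cells with vehicle (PBS), WT cells with 50 nM PTH, Y428F cells with vehicle and Y428F cells with 50 nM PTH, each for 2 hours. The Y428F libraries are named by their titles, whereas their genotype label reads WT. The study's text on this RNA-Seq calls the line YAP S381A/Y428F, in which a serine in a LATS target motif is changed to alanine (S381A) and a tyrosine to phenylalanine (Y428F). Its methods describe that line as made with a plasmid for Flag-tagged YAP-S381A under a CMV promoter, followed by puromycin selection of positive clones, and they also describe a line with Y428F alone. No library from cells with a WT YAP or S381A plasmid was analysed here, so the mutation, the plasmid, the selection and other differences between the lines cannot be told apart. The libraries held 17127897 to 19057319 counts (median 17740980.5). Nothing in the labels says that the replicates were separate cultures, so p-values measure only the spread between these samples.

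The stromal label was checked against its markers. *Col1a1*, *Col1a2*, *Col3a1*, *Vim*, *Pdgfrb*, *Cxcl12* and *Runx2* were expressed in every library, with *Col1a2* at 12829 ± 932 CPM (counts per library size after TMM scaling in edgeR; SD, n = 3) in WT cells with vehicle and 7745 ± 285 CPM in Y428F cells with vehicle. *Thy1*, a defining marker of many stromal cells, had 0 counts in all 12 libraries, *Nt5e* had at most 2 counts and *Lepr* at most 21. The osteocyte gene *Sost*, the adipocyte gene *Adipoq*, the T cell gene *Cd3e* and the epithelial genes *Epcam* and *Krt5* were at 0 in all 12 libraries. Several stromal markers were lower in Y428F cells, with *Col3a1* at 836 ± 150 and 203 ± 6.02 CPM, *Pdgfrb* at 618 ± 92.1 and 217 ± 8.24 CPM and *Pdgfra* at 95.2 ± 15.2 and 31.6 ± 1.84 CPM in WT and Y428F cells with vehicle. The markers of other cell types with more than 30 counts in any library were *Cdh5*, an endothelial cadherin gene, at 0.81 ± 0.28 CPM in vehicle-treated WT and 7.95 ± 0.87 CPM in vehicle-treated Y428F cells, and *Ptprc*, a leukocyte gene, at 0.85 ± 0.14 CPM and 2.79 ± 0.28 CPM. The receptor gene *Pth1r* had 0 to 8 counts in the WT libraries and 3 to 10 in the Y428F libraries, too few for a comparison at this depth.

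In the Hippo cascade, MST kinases bound to the adaptor SAV1 phosphorylate and activate LATS kinases bound to MOB1, and merlin helps to bring LATS to the membrane. Active LATS phosphorylates YAP and TAZ on serines, after which they are held in the cytoplasm by 14-3-3 proteins or degraded. When the cascade is off, YAP and TAZ enter the nucleus and act with TEAD factors on target genes such as *Ccn1* and *Ccn2*. *Lats2* is itself counted among the YAP targets, so a core gene can also be a readout. In BMSCs the pathway takes part in the choice between osteoblast and adipocyte fates. All of this acts largely on proteins, whereas the values here are of mRNA.

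The tyrosine changed in the Y428F line was located in the reference. The coding sequence of the reference *Yap1* transcript has 472 codons, and a search of its translation for the LATS target motif (histidine, any residue, arginine, any 2 residues, serine) found 5 serines, at codons 46, 94, 112, 149 and 366. The tyrosine was found by a search of the translation for part of the peptide that the study gives around this residue. The match set the offset between the study's number and the reference codon, which is 15. With 15 added the serines become 61, 109, 127, 164 and the number of S381A. The codon of the matched tyrosine is codon 413, TAC. It lies in exon 8 of 8, at chr9:7934678-7934680 on the minus strand of GRCm39. The 33 bases around it are shown because the line is defined by this residue, with the tyrosine codon in capitals:
Yap1 codon 413 (chr9:7934663-7934695, - strand): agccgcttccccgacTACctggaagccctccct
Reads were not analysed here, so whether the libraries carried a changed codon, and whether reads of a plasmid-borne YAP were counted in *Yap1*, was not tested.

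Promoter windows were searched for the core of the TEAD motif, GGAATG, and for the cAMP response element half-site, TGACG, on both strands, because TEAD factors carry YAP and TAZ and because PTH raises cAMP. The window ran from 250 bases before to 50 bases after the start of the reference transcript of each gene in GRCm39, and the motif letters do not overlap each other. GGAATG was present in 3 of the 10 windows, compared with 14% of 21770 promoters of the same length, and TGACG in 1 of 10, compared with 22.6%. The first base of the GGAATG match was at -77 from the start in *Yap1*, at -218 in *Wwtr1* and at -185 in *Mob1a*, where it is on the opposite strand and reads CATTCC. The TGACG match was at -79 in *Lats1*. The *Lats2* window had neither. RefSeq places the starts of some of these genes elsewhere: 1 of its 2 *Lats2* windows shared no run of 20 bases with the window searched, and its *Lats1* window shared 81 bases. The window searched may therefore not be the promoter in use, and the *Lats2* start used, at 57983716, lies inside the gene, whose 5′ end is at 57995845. The upstream 250 bases of the 3 genes with a TEAD core and of *Lats2* are given 5′ to 3′ with the matches in capitals:
Yap1 (chr9:8004662-8004911, - strand): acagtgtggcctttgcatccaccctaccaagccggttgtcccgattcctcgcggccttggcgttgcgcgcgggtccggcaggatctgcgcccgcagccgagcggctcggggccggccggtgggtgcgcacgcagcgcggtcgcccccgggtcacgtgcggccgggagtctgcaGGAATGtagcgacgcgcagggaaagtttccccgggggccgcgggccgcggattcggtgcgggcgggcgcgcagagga
Wwtr1 (chr3:57483250-57483499, - strand): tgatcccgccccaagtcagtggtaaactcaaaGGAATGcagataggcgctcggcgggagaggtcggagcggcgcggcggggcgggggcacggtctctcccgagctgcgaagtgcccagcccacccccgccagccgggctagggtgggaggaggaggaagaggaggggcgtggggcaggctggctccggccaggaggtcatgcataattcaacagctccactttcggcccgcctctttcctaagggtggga
Mob1a (chr6:83302747-83302996, + strand): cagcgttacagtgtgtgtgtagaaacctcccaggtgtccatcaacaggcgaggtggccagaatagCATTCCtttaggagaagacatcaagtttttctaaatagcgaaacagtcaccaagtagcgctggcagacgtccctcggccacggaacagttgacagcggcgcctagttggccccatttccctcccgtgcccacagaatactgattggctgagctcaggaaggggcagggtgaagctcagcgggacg
Lats2 (chr14:57983717-57983966, - strand): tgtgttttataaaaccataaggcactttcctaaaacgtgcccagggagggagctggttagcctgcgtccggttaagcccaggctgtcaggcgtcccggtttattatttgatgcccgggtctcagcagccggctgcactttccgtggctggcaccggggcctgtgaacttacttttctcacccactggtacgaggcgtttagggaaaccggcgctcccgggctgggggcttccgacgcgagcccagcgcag
A match describes the letters of the window only, and binding was not measured.

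**Figure D1:**
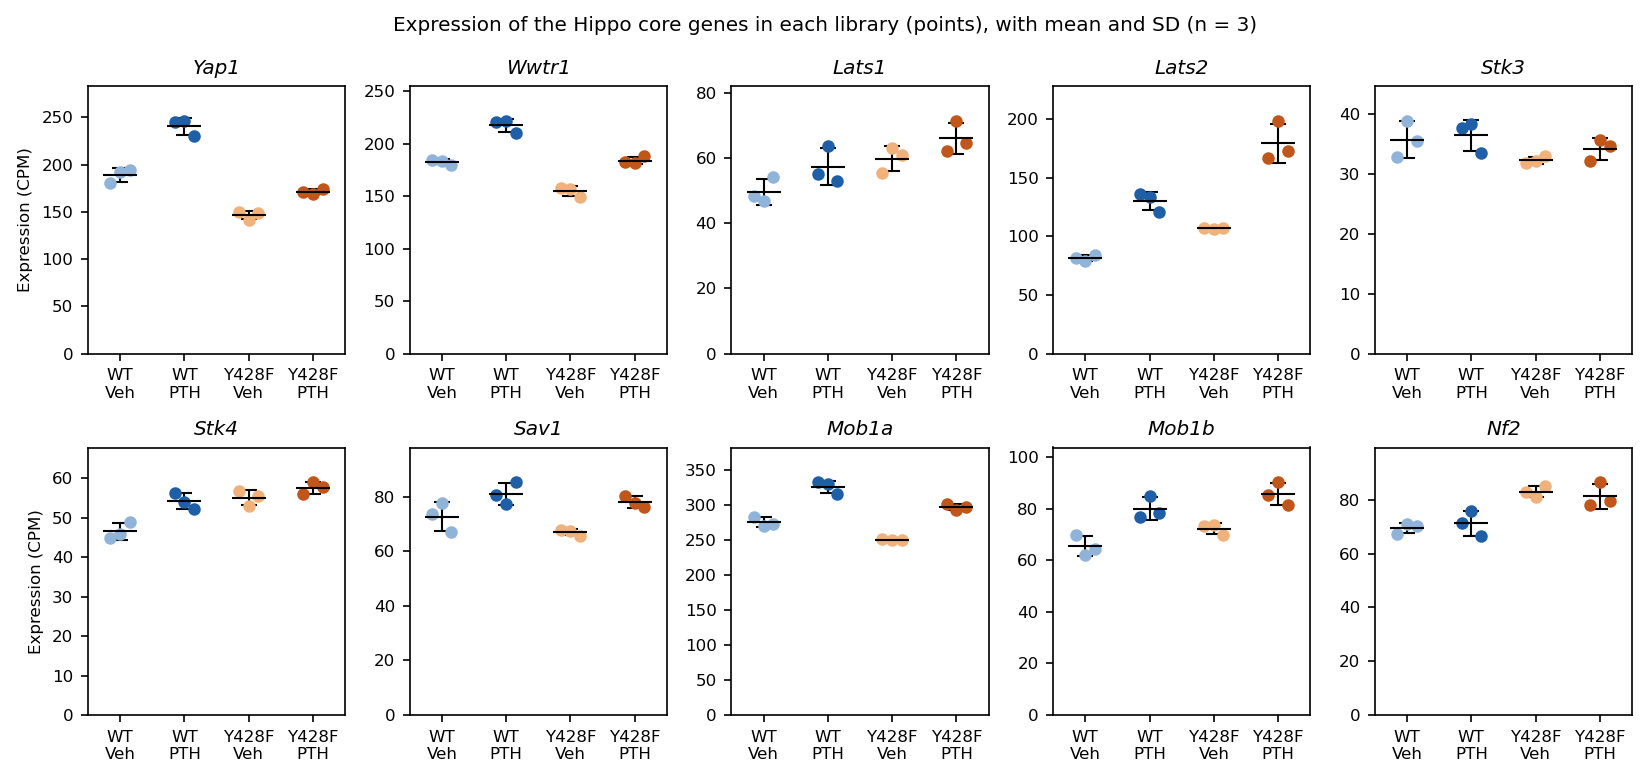
Expression in CPM (y axis, from 0, with a scale for each gene) of the 10 Hippo core genes in the 4 groups (x axis). Points are the 3 libraries, and lines and bars are the mean and SD. *Lats2* and *Yap1* with PTH sit above vehicle in both lines, and *Yap1* in Y428F cells sits below WT cells.

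With PTH, 5 of the 10 genes rose in WT cells and 0 fell: *Lats2*, *Yap1*, *Mob1b*, *Wwtr1* and *Mob1a*. *Lats2* rose the most, 1.61-fold, and the other 4 rose between 1.19-fold and 1.28-fold. Each value is from the bulk RNA of a sample, so fewer cells of a type and less RNA per cell cannot be told apart. In Y428F cells 6 of 10 rose and 0 fell, the same 5 genes and *Sav1*, again with *Lats2* first at 1.68-fold. The WT count is from a fit of the WT libraries alone and the Y428F count from a fit of all 12 libraries. In the latter fit *Stk4* also rose in WT cells. A gene is said to rise or fall where the adjusted p was under 0.05 in the quasi-likelihood test of edgeR, adjusted by Benjamini-Hochberg over every gene tested, and each adjusted p below is from that test. Of 15583 genes tested in WT cells 6.88% rose and 4.91% fell, and of 17691 genes tested in the fit of all 12 libraries 6.61% rose and 5.78% fell with PTH in Y428F cells. The median log2 fold change of the 10 genes was 0.24 in WT cells, with a range of 0.04 to 0.68, beside -0.015 for all genes. In Y428F cells it was 0.22, with a range of -0.03 to 0.75, beside -0.0067 for all genes. Library values did not overlap between vehicle and PTH, with PTH higher, for 6 of the 10 genes in either line, compared with 14.4% of all genes in WT and 15.5% in Y428F cells.

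The coactivator gene *Yap1* (ENSMUSG00000053110.14, chr9:7932000-8004661) had 181, 192 and 194 CPM in the 3 WT libraries with vehicle and 245, 246 and 230 CPM in those with PTH. In Y428F cells it had 150, 141 and 149 CPM with vehicle and 171, 169 and 174 CPM with PTH. All PTH libraries of a line thus lay above all its vehicle libraries, and all Y428F libraries lay below every WT library, with or without PTH. The log2 fold change with PTH was 0.36 ± 0.058 (SE) in WT cells (adjusted p = 0.00154) and 0.22 ± 0.053 in Y428F cells (adjusted p = 0.00739). Between the lines, *Yap1* was lower in Y428F cells by 0.37 on the log2 scale with vehicle (log2 fold change -0.37 ± 0.053, adjusted p = 7.70e-06) and by more with PTH (-0.49 ± 0.053, adjusted p = 1.35e-07). The lowest WT library with vehicle, 181 CPM, was above the highest Y428F library with PTH, 174 CPM.

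*Wwtr1* (ENSMUSG00000027803.15, chr3:57363067-57483331) encodes TAZ, the paralogue of YAP. It had 184, 184 and 180 CPM in WT cells with vehicle and 221, 222 and 210 CPM with PTH. The Y428F libraries had 158, 157 and 149 CPM with vehicle and 182, 181 and 188 CPM with PTH. The groups of a line did not overlap, but Y428F cells with PTH and WT cells with vehicle shared a range. The log2 fold change with PTH was 0.26 ± 0.056 in WT cells (adjusted p = 0.00873) and 0.25 ± 0.050 in Y428F cells (adjusted p = 0.00215). *Wwtr1* was lower in Y428F cells with vehicle (-0.24 ± 0.050, adjusted p = 0.000519) and with PTH (-0.24 ± 0.050, adjusted p = 0.000418).

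*Lats2* (ENSMUSG00000021959.17, chr14:57926960-57995845) encodes a kinase that phosphorylates YAP and TAZ. It had 81.2, 78.8 and 83.9 CPM in WT cells with vehicle and 136, 133 and 121 CPM with PTH. Values in Y428F cells were 107, 106 and 107 CPM with vehicle and 167, 198 and 173 CPM with PTH. The 4 groups did not overlap, and their order from low to high was WT with vehicle, Y428F with vehicle, WT with PTH and Y428F with PTH. The log2 fold change with PTH was 0.68 ± 0.063 in WT cells (adjusted p = 1.36e-05) and 0.75 ± 0.065 in Y428F cells (adjusted p = 1.37e-07). *Lats2* was higher in Y428F cells with vehicle (0.39 ± 0.066, adjusted p = 4.82e-05) and with PTH (0.46 ± 0.064, adjusted p = 4.32e-06), the opposite direction to *Yap1* and *Wwtr1*. Its annotated span includes *Gm49361* on the same strand, which had 0.78 CPM as a mean of the 12 libraries.

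*Lats1* (ENSMUSG00000040021.14, chr10:7556736-7592226) encodes the other LATS kinase. It had 48.2, 46.7 and 54.3 CPM in WT cells with vehicle and 55.1, 63.8 and 53.1 CPM with PTH. In Y428F cells it had 55.5, 63.0 and 60.9 CPM with vehicle and 62.1, 71.4 and 64.7 CPM with PTH. The treatments overlapped in both lines, and the log2 fold change with PTH did not pass the test, with 0.21 ± 0.087 in WT cells (adjusted p = 0.142) and 0.14 ± 0.078 in Y428F cells (adjusted p = 0.282). It was higher in Y428F cells with vehicle (0.27 ± 0.079, adjusted p = 0.00897), a call that was lost without WT vehicle replicate 2 (adjusted p = 0.0503). With PTH it was also called higher (0.21 ± 0.079, adjusted p = 0.0389), although the library values overlapped, and that call was lost in 6 of 12 fits without a library (adjusted p between 0.00474 and 0.201 over the alternatives). Its span shares 165 bases with *Pcmt1* on the opposite strand, which had 67.8 CPM, and whether the counting used strand is not settled by the labels.

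The MOB1 genes, whose proteins bind and activate LATS, moved with PTH in the same direction. *Mob1a* (ENSMUSG00000043131.15, chr6:83302997-83320762) had 283, 270 and 272 CPM in WT cells with vehicle and 332, 330 and 316 CPM with PTH. The Y428F libraries had 251, 250 and 250 CPM with vehicle and 301, 293 and 297 CPM with PTH. The 4 groups did not overlap, and the log2 fold change with PTH was 0.25 ± 0.058 in WT cells (adjusted p = 0.0133) and 0.25 ± 0.049 in Y428F cells (adjusted p = 0.00202). *Mob1b* (ENSMUSG00000006262.16, chr5:88868702-88912079) had 69.7, 62.0 and 64.5 CPM in WT cells with vehicle and 76.7, 85.1 and 78.4 CPM with PTH. Values in Y428F cells were 73.2, 73.9 and 69.8 CPM with vehicle and 85.3, 90.2 and 81.5 CPM with PTH. It too rose without overlap, by 0.30 ± 0.072 in WT cells (adjusted p = 0.0162) and 0.24 ± 0.062 in Y428F cells (adjusted p = 0.0117). The WT call of either gene was lost in 3 of 6 fits without a library, among them those without vehicle replicate 2 or 3, with adjusted p up to 0.0636 for *Mob1a* and 0.0786 for *Mob1b*. The *Mob1b* call in Y428F cells was lost in 2 of 12 such fits (adjusted p up to 0.0588).

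The MST kinase genes *Stk3* and *Stk4* are paralogues at the head of the cascade, and neither passed the test with PTH. *Stk3* (ENSMUSG00000022329.16, chr15:34874700-35179067) had 32.7, 38.8 and 35.5 CPM in WT cells with vehicle and 37.6, 38.2 and 33.4 CPM with PTH. In Y428F cells it had 31.8, 32.1 and 32.9 CPM with vehicle and 32.2, 35.6 and 34.5 CPM with PTH. The groups overlapped in each of the PTH and line comparisons, and it passed none of these tests. *Stk4* (ENSMUSG00000018209.16, chr2:163912242-163997444) had 44.8, 45.8 and 48.9 CPM in WT cells with vehicle and 56.2, 54.0 and 52.2 CPM with PTH. The Y428F libraries had 56.8, 52.9 and 55.5 CPM with vehicle and 56.0, 58.9 and 57.9 CPM with PTH. The WT libraries did not overlap between treatments, but the log2 fold change of 0.23 ± 0.072 missed the threshold (adjusted p = 0.0599), and it passed when all 12 libraries were fitted together (adjusted p = 0.0197) and in the fit of genes with at least 10 counts in every library (0.0197 to 0.186 over the alternatives). In Y428F cells the value was 0.06 ± 0.060 (adjusted p = 0.585). With vehicle, *Stk4* was higher in Y428F than in WT cells (0.24 ± 0.060, adjusted p = 0.00218), and its span shares 937 bases with the antisense gene *Tomm34*, which had 31.6 CPM.

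*Sav1* (ENSMUSG00000021067.9, chr12:70003735-70033975) encodes the scaffold of the MST kinases. It had 73.6, 77.5 and 67.0 CPM in WT cells with vehicle and 80.8, 77.3 and 85.2 CPM with PTH, with an overlap of the treatments. Values in Y428F cells were 67.8, 67.3 and 65.7 CPM with vehicle and 80.2, 77.8 and 76.2 CPM with PTH, without overlap. The log2 fold change was 0.17 ± 0.074 in WT cells (adjusted p = 0.179) and 0.22 ± 0.061 in Y428F cells (adjusted p = 0.0198), and the latter call was lost with library totals and in 4 of 12 fits without a library (0.00737 to 0.0836 over the alternatives). *Nf2* (ENSMUSG00000009073.17, chr11:4715841-4799536) had 67.3, 71.1 and 70.2 CPM in WT cells with vehicle and 71.5, 75.8 and 66.6 CPM with PTH. In Y428F cells it had 83.0, 80.9 and 85.2 CPM with vehicle and 77.9, 86.5 and 79.5 CPM with PTH. Merlin's gene thus differed by line, with every Y428F library above every WT library, and overlapped between treatments. Its log2 fold change with PTH was 0.04 (95% interval -0.10 to 0.19) in WT cells and -0.03 (-0.16 to 0.10) in Y428F cells.

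**Figure D2:**
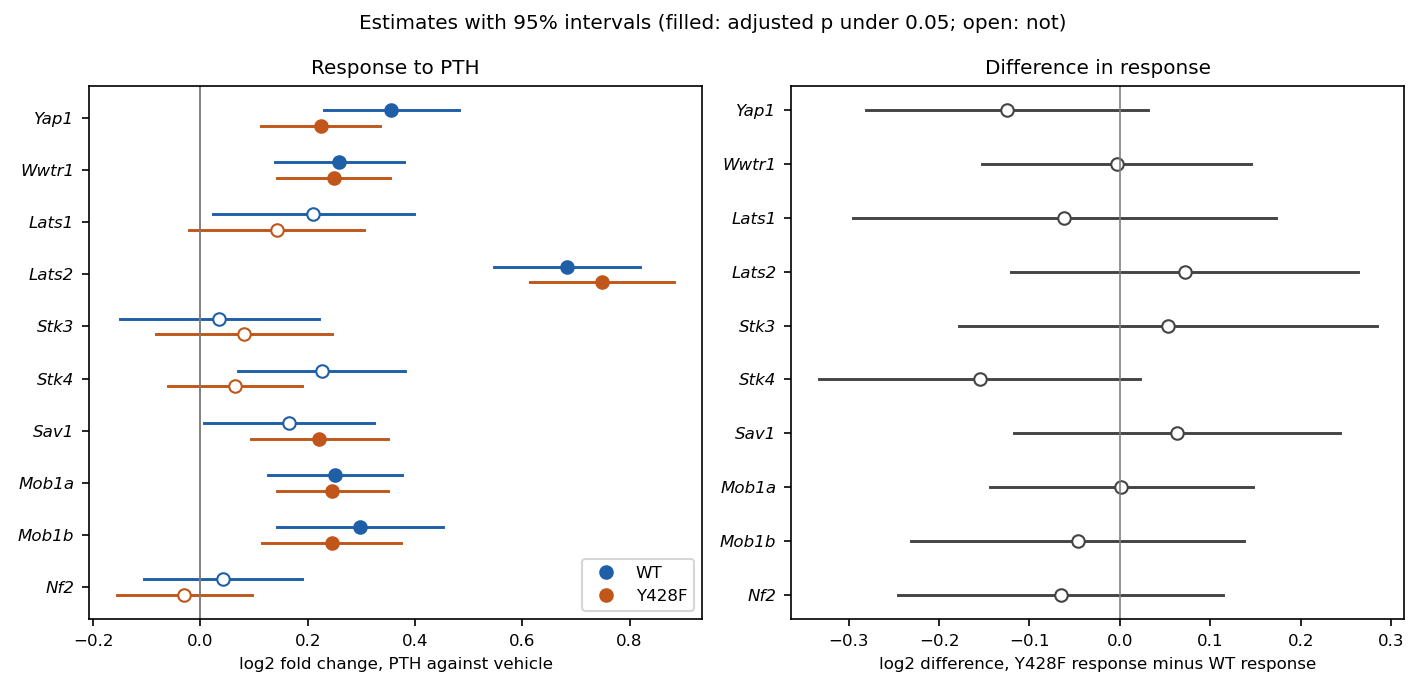
Left, log2 fold change with PTH (x axis) of each gene (y axis) in WT and Y428F cells; right, the difference of the responses, Y428F minus WT. Points are estimates and bars 95% intervals, filled where the adjusted p was under 0.05; *Lats2* lies at 0.68 and 0.75 on the left, and every interval on the right includes 0.

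The difference between the responses of the lines was tested directly, as the interaction of line and PTH in the fit of 12 libraries, and 0 of the 10 genes passed edgeR's test. Of all 17691 genes, 0.413% passed it. At an unadjusted p under 0.05 the count over the 10 genes was also 0, and it was 0 with DESeq2. *Yap1* had the second largest value, -0.12 on the log2 scale (95% interval -0.28 to 0.03, adjusted p = 0.811), after *Stk4* with -0.16 (-0.33 to 0.02, adjusted p = 0.783). A *Yap1* response as much as 0.28 smaller in Y428F cells, or 0.03 larger, lay within the interval. For *Lats2* the difference was 0.07 (-0.12 to 0.26), for *Wwtr1* -0.0037 (-0.15 to 0.14) and for *Mob1a* 0.0016 (-0.14 to 0.15). The widest interval was that of *Lats1*, -0.29 to 0.17, around -0.06. These intervals do not show that the lines respond alike.

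Between the lines with vehicle, 4 of the 10 genes were higher in Y428F cells (*Lats2*, *Lats1*, *Nf2* and *Stk4*) and 3 were lower (*Yap1*, *Wwtr1* and *Mob1a*). The coactivator genes were thus lower, and 2 kinase genes of LATS, 1 of MST and *Nf2* were higher. Of all genes tested 22.4% were higher and 22.7% lower, so 7 of 10 stands beside 45.1%. With PTH, *Lats2*, *Lats1* and *Nf2* were higher and *Yap1*, *Wwtr1* and *Mob1a* lower, 6 of 10 beside 45.7% of all genes (22.8% higher and 23.0% lower). The median of the 10 genes was 0.013 with vehicle and 0.017 with PTH, beside 0.012 and 0.019 for all genes. Library values with vehicle did not overlap for 5 genes higher and 3 lower in Y428F cells, beside 27.5% and 26.3% of all genes, and with PTH for 2 and 3, beside 25.6% and 26.3%. Comparisons within a line and between lines share libraries. *Nf2* had log2 differences of 0.26 ± 0.061 (adjusted p = 0.00161) and 0.19 ± 0.061 (adjusted p = 0.0149). *Mob1a* had -0.14 ± 0.049 with vehicle (adjusted p = 0.0291) and -0.13 ± 0.049 with PTH (adjusted p = 0.0300), and neither passed with library totals in place of TMM or without a filter on low counts. The *Mob1a* calls were also lost in 4 of 12 fits without a library with vehicle (adjusted p up to 0.0630) and in 2 of 12 with PTH (up to 0.124), and the *Nf2* call with PTH in 2 of 12 (up to 0.102). Of the genes not called with vehicle, *Mob1b* passed in 3 of 19 alternatives and *Stk3* and *Sav1* in 1 each, without WT vehicle replicate 1 (adjusted p = 0.0417) and 3 (adjusted p = 0.0388), and with PTH *Stk4* and *Mob1b* passed with library totals (adjusted p = 0.0294 and 0.0327). Of the stromal markers, 1 of 10 tested was higher in vehicle-treated Y428F cells and 8 were lower, with a median log2 difference of -0.63, and the part of this in the values of the core genes was not tested.

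**Figure D3:**
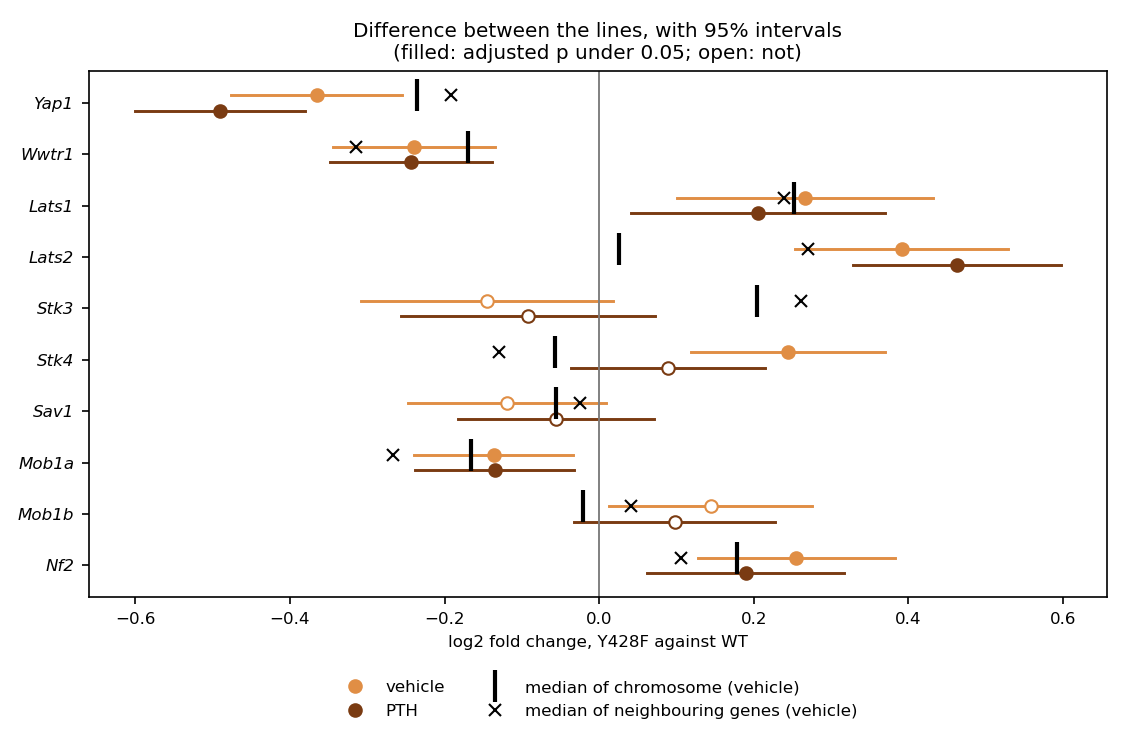
Log2 fold change of Y428F against WT cells (x axis) for each gene (y axis), with vehicle and with PTH, with 95% intervals and filled points where the adjusted p was under 0.05. Vertical ticks and crosses mark the vehicle medians of the gene's chromosome and of its nearest expressed genes; the tick for *Yap1* is at -0.24 and its vehicle point at -0.37.

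The line differences varied by chromosome, so each gene was set beside the genes around it. On chromosome 9, which carries *Yap1*, the median log2 difference with vehicle was -0.24 over 571 other expressed genes (mean of at least 4 CPM), and 76.9% of them were lower in Y428F cells, compared with 50.5% of 10418 genes on all chromosomes. *Yap1* lay 0.13 below its chromosome's median with vehicle, and 0.23 below it with PTH. Of the 31 nearest expressed genes, 20 or fewer on a side because *Yap1* lies near the chromosome's start, 24 were lower, with a median of -0.19. Among them were the adjacent *Birc2* (-0.30 ± 0.10), an inhibitor of apoptosis gene, and *Cfap300* (-0.73 ± 0.19), a gene of cilia, and *Amotl1* (-0.41 ± 0.075), which encodes a YAP-binding angiomotin. *Lats1* differed from the median of chromosome 10 (0.25) by 0.015, and *Mob1a* from that of chromosome 6 (-0.17) by 0.029. The chromosome medians were -0.17 for *Wwtr1* (chromosome 3) and 0.18 for *Nf2* (chromosome 11), in the direction of these genes. The medians of their 40 nearest expressed genes were -0.31 and 0.11, beside -0.24 for *Wwtr1* and 0.26 for *Nf2*. *Stk4* lay 0.30 above the median of chromosome 2 and 0.37 above that of its 40 nearest expressed genes, and *Stk3* 0.35 below the median of chromosome 15 and 0.41 below that of its neighbours. *Lats2* lay 0.36 above the median of chromosome 14, but only 0.12 above that of its 40 neighbours, which was itself 0.27. Whether chromosome copy number differed between the lines was not tested.

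**Figure D4:**
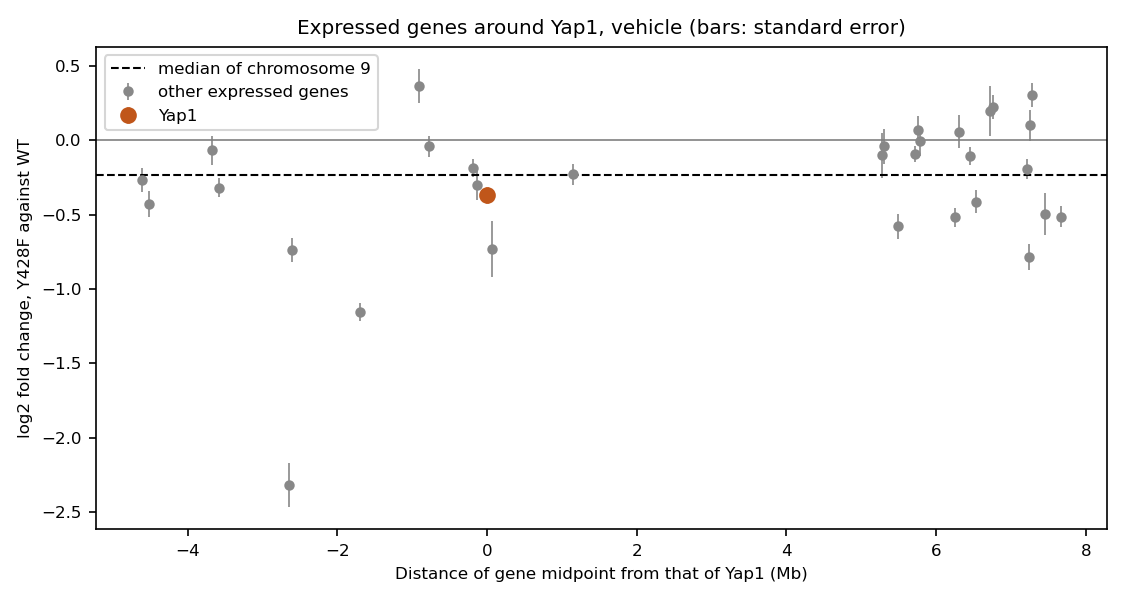
Log2 fold change of Y428F against WT cells with vehicle (y axis, bars are SE) for *Yap1* and the 31 nearest expressed genes, by distance of gene midpoints (x axis, in Mb). Of these 31 genes 24 lie below 0, and the dashed line marks the chromosome median of -0.24.

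Ratios of paralogues were followed in each library, since the length of a gene cancels when the ratio of 1 pair is compared between groups. The ratio of *Lats2* to *Lats1* in CPM was 1.64 ± 0.081 in WT cells with vehicle and 2.28 ± 0.19 with PTH, and 1.79 ± 0.13 and 2.71 ± 0.060 in Y428F cells. Libraries with PTH lay above those with vehicle in both lines, without overlap. Per kilobase of exon (union of exons of basic transcripts), *Lats2* made up 67.3% ± 1.1 of the 2 LATS levels with vehicle and 74.0% ± 1.6 with PTH in WT cells, and 69.1% ± 1.5 and 77.3% ± 0.38 in Y428F cells. The ratio of *Wwtr1* to *Yap1* in CPM was 0.97 ± 0.047 and 0.91 ± 0.0068 in WT cells, and 1.06 ± 0.054 and 1.07 ± 0.0084 in Y428F cells. The ratio of *Stk4* to *Stk3* was between 1.18 and 1.56 in the WT libraries and between 1.65 and 1.79 in the Y428F libraries, without overlap of the lines. That of *Mob1b* to *Mob1a* was between 0.230 and 0.258 in WT cells and between 0.274 and 0.308 in Y428F cells. These ratios are descriptions and were not tested.

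**Figure D5:**
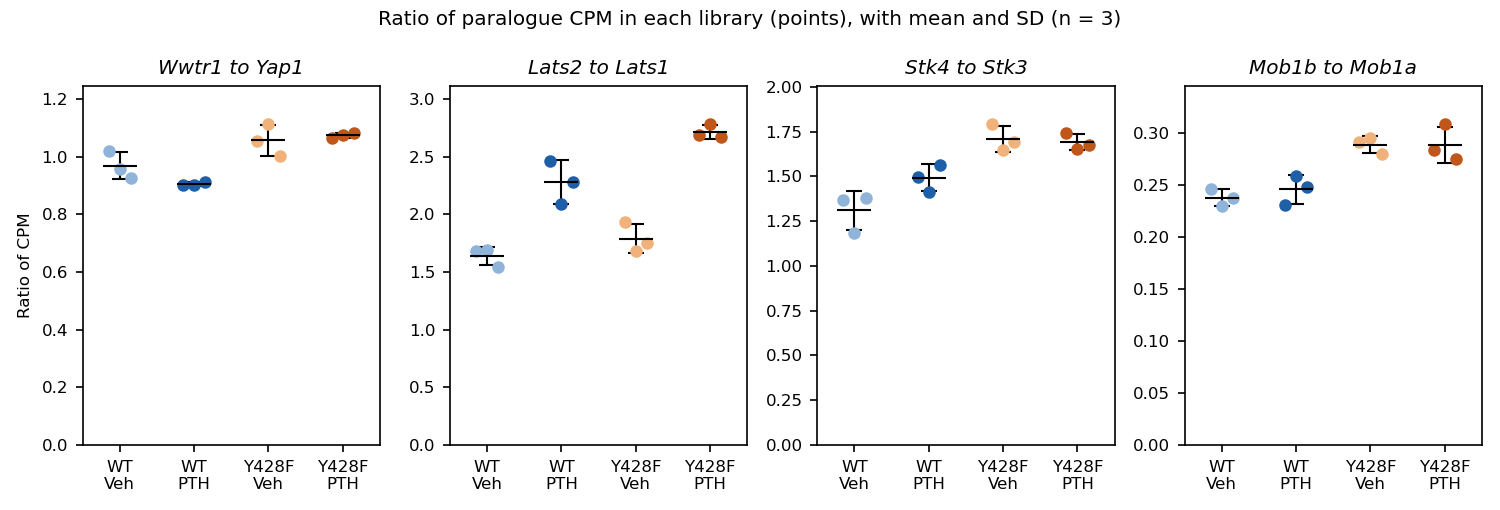
Ratio of CPM (y axis, from 0) within 4 paralogue pairs in the 4 groups (x axis), with points for the 3 libraries and lines and bars for mean and SD. *Lats2* to *Lats1* was higher with PTH in both lines, and *Stk4* to *Stk3* and *Mob1b* to *Mob1a* were higher in Y428F cells.

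Levels between genes were compared in CPM per kilobase. With 4 ways to measure length (union of basic exons, union of all exons, longest transcript and canonical transcript), *Mob1a* ranked first in all groups and *Yap1* in place 2 or 3. *Lats1* ranked between 8 and 10 and *Mob1b* between 7 and 9. With the union of basic exons, *Yap1* had 44.0 ± 1.68 CPM per kilobase in WT cells with vehicle and *Wwtr1* 15.4 ± 0.20. The place of *Wwtr1*, between 2 and 5, depended on the length, which is 11834 bases as a union and 4700 bases for the canonical transcript, and so did the share of *Wwtr1* in the sum with *Yap1*, 26.0% with the union of basic exons, 46.3% with the canonical and 52.1% with the longest transcript in WT cells with vehicle, so which of the pair was higher depended on it. In that group and with the union of basic exons, *Stk4* and *Lats2*, and *Nf2* and *Mob1b*, were neighbours in the order whose libraries overlapped, and the other neighbours did not.

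The genes with a pattern most like that of *Yap1* were sought by the root mean square difference of centred log2 CPM over the 12 libraries, over the 11208 genes that averaged 2 CPM or more. The nearest were *Tollip* (0.049), *Mgat1* (0.060), *Cmtm6* (0.060), *Msl2* (0.069) and *Hsdl1* (0.069), compared with a median of 0.33 over all genes. *Tollip*, an adaptor of Toll-like receptor signalling, had 128 ± 7.23 CPM in WT cells with vehicle, 155 ± 2.64 with PTH, and 96.0 ± 2.58 and 116 ± 2.62 CPM in Y428F cells. For *Lats2*, chosen after its values were seen, the nearest gene was *Tead1* (0.081), followed by *Usp31* (0.10), *Phldb2* (0.10), *Pparg* (0.10) and *Gse1* (0.11), compared with a median of 0.47. *Tead1*, which encodes a DNA-binding partner of YAP, had 99.0, 90.3 and 99.8 CPM in WT cells with vehicle and 171, 177 and 147 CPM with PTH. In Y428F cells it had 130, 131 and 132 CPM and then 183, 231 and 233 CPM.

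Genes that act on the core were followed as lists, and their counts are given beside the shares of all genes stated above for the same comparison. Among 10 MAP4K and TAO kinase genes, which activate LATS in parallel to MST, 1 rose and 2 fell with PTH in WT cells, and 1 rose and 2 fell in Y428F cells. *Map4k2* fell by 0.42 and 0.40 on the log2 scale (adjusted p = 0.0137 and 0.0106) and *Taok2* by 0.29 and 0.28 (adjusted p = 0.0207 and 0.0277), while *Map4k3* rose in WT (0.27, adjusted p = 0.0348) and *Map4k5* in Y428F cells (0.21, adjusted p = 0.0329). In the other line *Map4k3* had 0.17 (adjusted p = 0.125) and *Map4k5* 0.095 (adjusted p = 0.488). Among 16 scaffold and polarity genes, 3 rose and 2 fell in WT cells and 5 rose and 3 fell in Y428F cells. *Frmd6*, which encodes a relative of merlin in the same pathway branch, rose by 0.52 in WT (adjusted p = 0.000220) and 0.25 in Y428F cells (adjusted p = 0.0129), and *Amot* by 0.35 and 0.27 (adjusted p = 0.00536 and 0.0413). The protocadherin gene *Dchs1* fell by 0.77 in WT and 0.87 in Y428F cells (adjusted p = 0.0384 and 0.0320), and *Llgl1* fell by 0.27 and 0.30 (adjusted p = 0.0193 and 0.00303). *Wwc2* rose in both lines, by 0.31 and 0.34 (adjusted p = 0.00977 and 0.00129), and *Wtip* in Y428F cells by 0.32 (adjusted p = 0.0157), with 0.19 in WT cells (adjusted p = 0.145). The calls of *Dchs1* and *Map4k3* in WT cells, of *Wtip* and *Map4k5* in Y428F cells and of *Taok2* in either line were each lost in 3 or more fits without a library, and that of *Map4k2* in 2 in either line.

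Genes of STRIPAK, the phosphatase complex that restrains MST, were tested for 13 of 14, since *Stk26* did not pass the filter. With PTH, 0 fell in either line, and in Y428F cells 1 rose. *Strn3* rose in both (0.37, adjusted p = 0.00176, and 0.49, adjusted p = 2.80e-06) and *Ppp2ca* in WT cells (0.25, adjusted p = 0.0118), with 0.14 in Y428F cells (adjusted p = 0.0867). The *Ppp2ca* call was lost without WT vehicle replicate 3 or WT PTH replicate 1 (adjusted p up to 0.0614). Of 6 genes for NDR kinases and other MOB proteins, 1 rose in each line, *Mob3a*, which went from 43.0 ± 1.17 to 80.4 ± 3.19 CPM with PTH in WT cells. In Y428F cells *Mob3a* went from 41.8 ± 1.74 to 61.6 ± 2.75 CPM. Its log2 fold changes were 0.91 (adjusted p = 1.89e-06) and 0.56 (adjusted p = 2.79e-06). Of 11 genes for YAP turnover and retention, 3 rose and 0 fell in each line, all for 14-3-3 proteins. These were *Ywhah* (0.32, adjusted p = 0.00340), *Ywhag* (0.25, adjusted p = 0.0370) and *Ywhaz* (0.24, adjusted p = 0.0231) in WT cells, and *Ywhah* (0.21, adjusted p = 0.0150), *Ywhaz* (0.20, adjusted p = 0.0123) and *Ywhae* (0.17, adjusted p = 0.0498) in Y428F cells. *Ywhag* had 0.078 in Y428F (adjusted p = 0.488) and *Ywhae* 0.16 in WT cells (adjusted p = 0.116). With library totals, the calls of *Ywhag*, *Ywhaz* in WT cells, and of *Ywhah* and *Ywhae* in Y428F cells were lost, and each was also lost in 3 or more fits without a library.

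Downstream of YAP and TAZ, 6 of 8 TEAD and VGLL genes passed the filter (not *Vgll1* and *Vgll2*), and 3 rose and 0 fell with PTH in either line. *Tead4* rose by 1.14 in WT (adjusted p = 0.000146) and 0.55 in Y428F cells (adjusted p = 0.00335), *Vgll3*, a cofactor of TEAD, by 1.01 (adjusted p = 3.29e-07) and 0.93 (adjusted p = 1.55e-09), and *Tead1* by 0.78 (adjusted p = 1.67e-05) and 0.72 (adjusted p = 4.62e-06). Of 22 genes listed as YAP targets, *Lats2* among them, 21 were tested, and 8 rose and 2 fell in WT cells, and 9 rose and 1 fell in Y428F cells. *Ccn2*, a matricellular gene, had 4.87, 5.74 and 5.04 CPM in WT cells with vehicle and 23.3, 21.5 and 17.1 CPM with PTH. The Y428F libraries had 19.1, 19.1 and 18.7 CPM with vehicle and 77.8, 87.0 and 69.0 CPM with PTH. Vehicle-treated Y428F cells were thus near PTH-treated WT cells, and the log2 fold changes with PTH were 1.99 (adjusted p = 6.41e-07) and 2.04 (adjusted p = 5.01e-11). *Ccn1* rose by 1.08 (adjusted p = 3.19e-06) and 0.62 (adjusted p = 2.99e-05), *Ankrd1* by 0.82 (adjusted p = 2.21e-05) and 0.44 (adjusted p = 0.000267), and *Crim1* by 0.84 (adjusted p = 2.06e-06) and 0.68 (adjusted p = 2.63e-07). *Src*, the kinase gene of the study's question, had log2 fold changes of 0.09 (adjusted p = 0.539) and -0.01 (adjusted p = 0.955).

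Between the lines with vehicle, these lists held genes in both directions. Of the 21 targets 7 were higher and 7 lower in Y428F cells, with *Ccn2* higher by 1.86 (adjusted p = 1.77e-10) and *Ccdc80* (-1.18, adjusted p = 7.96e-13) and *Fjx1* (-1.53, adjusted p = 6.14e-05) lower. *Ankrd1* was higher by 0.67 (adjusted p = 1.79e-07) and *Ccn1* by 0.40 (adjusted p = 0.000393). Of the TEAD and VGLL genes *Tead4* (1.08, adjusted p = 7.36e-07) and *Tead1* (0.44, adjusted p = 0.000165) were higher, and *Vgll4*, which encodes a protein that competes with YAP for TEAD, was lower (-0.48, adjusted p = 6.60e-06), as was *Tead3* (-0.24, adjusted p = 0.00976). Of the turnover and retention genes 6 of 11 were higher and 1, *Sfn* (-1.01, adjusted p = 0.00582), lower, with *Ywhae* (0.65, adjusted p = 4.06e-09) and *Ywhag* (0.36, adjusted p = 5.66e-05) among the former. *Sfn* averaged under 2 CPM over the 12 libraries. Of the scaffold genes 3 were higher and 7 lower. *Dchs1*, which averaged under 2 CPM over the 12 libraries, had -1.12 (adjusted p = 0.000264), and the largest values among genes above that level were those of *Scrib* (0.61, adjusted p = 1.33e-07), *Amotl1* (-0.41, adjusted p = 0.000119) and *Frmd6* (-0.36, adjusted p = 0.000106). Of the 10 kinase genes 3 were higher, *Map4k2* (0.40, adjusted p = 0.00206), *Taok1* (0.25, adjusted p = 0.0119) and *Map4k4* (0.24, adjusted p = 0.00176), and 2 lower, *Map4k1* (-1.01, adjusted p = 1.98e-05) and *Taok2* (-0.25, adjusted p = 0.0168). Of the STRIPAK genes 3 were higher, among them *Ppp2ca* (0.39, adjusted p = 2.34e-06), and 4 lower, among them *Stk25* (-0.28, adjusted p = 0.000466). Of the NDR and MOB genes *Stk38l* was higher (0.23, adjusted p = 0.0237) and *Mob3c* lower (-0.28, adjusted p = 0.0289). The *Mob3c* call was lost in 8 of 18 alternatives, with DESeq2, library totals, no filter on low counts and 5 fits without a library (adjusted p up to 0.110), and that of *Stk38l* in 3 fits without a library (up to 0.0996).

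The difference in response to PTH passed the test for 1 gene of all these lists, the target *F3*, which encodes tissue factor. *F3* had 55.0, 62.8 and 58.5 CPM in WT cells with vehicle and 53.7, 51.9 and 53.1 CPM with PTH. Values in Y428F cells were 25.8, 26.8 and 28.2 CPM with vehicle and 36.4, 32.4 and 33.6 CPM with PTH. The PTH libraries lay below the vehicle libraries in WT cells and above them in Y428F cells, without overlap. Such gaps were present in 14.6% and 15.5% of all genes. Within WT cells the log2 fold change of *F3* did not pass the test (-0.14, adjusted p = 0.240), whereas in Y428F cells it did (0.34, adjusted p = 0.00317). The difference of the responses was 0.49 ± 0.099 (adjusted p = 0.0271). That call was lost in 9 of 12 fits without a library (adjusted p up to 0.116). *Tead4*, *Ccn1* and *Ankrd1* had smaller log2 fold changes in Y428F than in WT cells, but the difference did not pass the test (adjusted p = 0.282, 0.136 and 0.169), nor did that of *Ccn2* (0.06, adjusted p = 0.984).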

How the data were processed

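The authors mapped the reads with STAR 2.7.10b to GRCm39 with the GENCODE vM31 basic annotation, and the deposited values are expected counts per gene from RSEM, without scaling for library size or gene length. Whether the library kit and the counting used strand is not settled by the labels, so overlapping antisense genes cannot be told apart. Groups were taken from the titles. The expected counts were rounded and tested in edgeR 4.0.16 (R 4.3.3; TMM, quasi-likelihood test, Benjamini-Hochberg adjustment). Genes needed 10 counts or more in sum, which left 15583 for PTH in WT cells, fitted on 6 libraries, and 17691 for the other 4 comparisons, fitted on all 12. Intervals of log2 fold changes are 95% intervals of that fit. The test was tried on simulated counts. Gene positions, lengths and promoter sequences came from GRCm39 with GENCODE vM39, which matched 56236 identifiers and not 744. Depth was 17127897 to 19057319 counts per library.

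The 10 genes, the lists and the tests were chosen with earlier results of these data known. Besides the 10, the genes named are *Pth1r*, *Src*, *Ccn1*, *Ccn2* and *Ankrd1*, for each list and comparison up to 3 called genes with the largest log2 fold change and a mean of 2 CPM or more, of which the text gives those with PTH and most of those with vehicle, and the 5 genes with a pattern nearest to that of *Yap1*. Outside this rule, cell type markers, some listed genes that complete a count with vehicle (*Dchs1*, *Map4k4*, *Taok2*, *Tead3* and *Sfn*), neighbours of *Yap1* on its chromosome, genes overlapping a core gene and the genes most like *Lats2* are named, the listed genes and those like *Lats2* chosen after values were seen. A gene that this rule names is not reported here. Alternatives were DESeq2 1.42.0, scaling by its size factors or by library totals, other filters, a stricter limit, the replicate number as a block and each library left out. Libraries of 1 group were not duplicates (chi-square per degree of freedom of 2.94 or more). Same-numbered libraries did not deviate together, so numbers were not used as pairs.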

Additional observations from a re-analysis of the deposited data

Results flagged for a closer look

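*F3*, a YAP target gene, was singled out because its response to PTH differed between the lines, by 0.49 on the log2 scale (edgeR, adjusted p = 0.0271), and that call was lost in 9 of 12 fits without a library, where the adjusted p reached 0.116 (0.00265 to 0.116 over all alternatives).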

How the results depend on the processing

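*Yap1*, *Wwtr1* and *Lats2* kept the direction and call they had in the PTH and line comparisons under each alternative with the same limit on the adjusted p, 14 to 20 in a comparison. With an adjusted p under 0.01 and a log2 change beyond 0.3, 2 of the 10 genes (not *Wwtr1*) passed with PTH in WT cells, 1 in Y428F cells and 2 in either line comparison. With a library left out, 3 to 5 passed with PTH in WT cells (3 without vehicle replicate 2 or 3), 4 to 6 in Y428F cells, 6 to 8 between lines with vehicle, 4 to 6 with PTH, and 0 for the difference in response. Deviations of log2 CPM from the group means correlated at 0.0019 on average between same-numbered libraries of different groups (18 pairs, -0.031 to 0.037). The numbers were therefore not treated as pairs. With the replicate block the counts over the 10 genes were 5, 6, 7, 6 and 0, and *Map4k3*, *Dchs1*, *Ywhag* and *Ywhaz* were no longer called with PTH in WT cells. Without a filter on low counts 216 of all genes, and with DESeq2 124, differed in response, compared with 73. Library totals moved the median of all genes with PTH in WT cells from -0.015 to -0.073.

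Signs turned only for values that were not called. With library totals, PTH in WT cells gave -0.024 for *Stk3* and -0.017 for *Nf2*, and the line difference with PTH 0.011 for *Sav1*. For the difference in response, *Wwtr1* gave 0.00819 with library totals, 0.00121 without the filter and 0.00104 with at least 10 counts in every library, and *Mob1a* gave -0.000339 with DESeq2 and -0.000457 with its size factors. With a library left out, *Stk3* ranged from -0.0097 to 0.10 with PTH in WT cells, and *Nf2* from -0.077 to 0.0017 and *Src* from -0.061 to 0.033 in Y428F cells. For the difference in response these ranges were -0.035 to 0.016 for *Wwtr1*, -0.13 to 0.028 for *Lats1*, -0.016 to 0.12 for *Lats2*, -0.018 to 0.10 for *Stk3*, -0.030 to 0.023 for *Mob1a* and -0.10 to 0.0048 for *Mob1b*. The causes were not tested. The shares of paralogues per kilobase moved with the measure of length, whereas ratios of CPM do not use it, and the canonical length and the union of all exons were added after seeing the data.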
